A study of Antheraea pernyi with 6 samples.

Results

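Unannotated genes with a strong difference between the sex labels were examined in the antennae of the Chinese oak silkmoth, Antheraea pernyi. The comparison was between 3 mRNA libraries labelled male and 3 labelled female. All 6 came from the antenna of the adult moth, its main olfactory organ, and the labels give no strain, age in days or number of animals per library. The p-values given below therefore reflect the spread among these libraries alone, and that spread may be technical. Values are FPKM, the authors' read numbers scaled to gene length and library depth, and library totals recovered from the steps of these values lay between 9392242 and 9606755 reads in the male-labelled libraries and between 10851262 and 11180175 in the female-labelled ones.

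A gene counted as unannotated where its best protein hit was missing or was called uncharacterized, hypothetical or unnamed, as was so for 6061 of 16458 genes. A member also needed a mean of at least 5 FPKM in 1 label and an absolute log2 ratio of at least 2, taken as (male-labelled mean + 1)/(female-labelled mean + 1). In addition, all 3 libraries of 1 label had to lie above all 3 of the other. In all, 66 genes met this rule, 50 of them higher under the label male and 16 higher under the label female. The members were chosen by their FPKM levels under the 2 labels, so these levels are described here without a test. In whole antennae, more cells of a type and more RNA per cell cannot be told apart. Log2 ratios of members are on this log2(FPKM + 1) scale throughout and understate the difference of low genes.

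Genes without a name are common in insect genomes that lack close, well-studied relatives. Some are short secreted proteins that diverge too fast for a name to be passed on by similarity, and others are fragments of longer genes, or copies of known families that were never named. Fast-changing families of the moth antenna include carriers of odorants in the sensillum lymph, proteins of the cuticle and peptides of the immune defence. The pheromone-binding proteins, soluble carriers of the female sex pheromone, are often higher in male antennae of moths. Here pheromone-binding protein 1 (GWHGABGR012196) averaged 1273 ± 90.6 FPKM in the male-labelled libraries and 92516 ± 2089 FPKM in the female-labelled ones (SD, n = 3 each). The antennal olfactory markers went in both directions: of 11 tested, 5 were higher under the label male and 4 under the label female. Exchanged labels and a true sex difference cannot be told apart, so every direction below is one between labels.

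The same thresholds of level, ratio and separation were met by 1.27% of all genes, 0.802% higher under the label male and 0.468% under the label female. Among unannotated genes the share was 1.09%, with 0.825% and 0.264% in these directions. Among the 10397 annotated genes it was 1.38% (143 genes), with 0.789% and 0.587%. The level of 5 FPKM alone was reached by 1851 unannotated and 5428 annotated genes. Of these, 3.57% of the unannotated ones (2.7% and 0.864% in the same order of directions) and 2.63% of the annotated ones (1.51% and 1.12%) met the rest of the rule. As the rule used this contrast, nothing is read from these shares. On the deposited scale 75.8% of the members were higher under the label male, against 57.3% of the annotated genes past the same thresholds. This split depended on the scaling and on the pseudocount: with a pseudocount of 5 the shares were 47.8% (11 and 12 genes under the labels male and female) and 54.9% (45 and 37). Over all genes tested the log2 fold change had a median of 0.23 as deposited and of 0.02 after median-of-ratios rescaling. With that rescaling, 37 unannotated genes (59.7%) met the rule under the label male and 25 under the label female, and 53 of the 66 members were among them in the same direction. Of annotated genes, 44% of those past the thresholds were then higher under the label male.

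**Figure D1:**
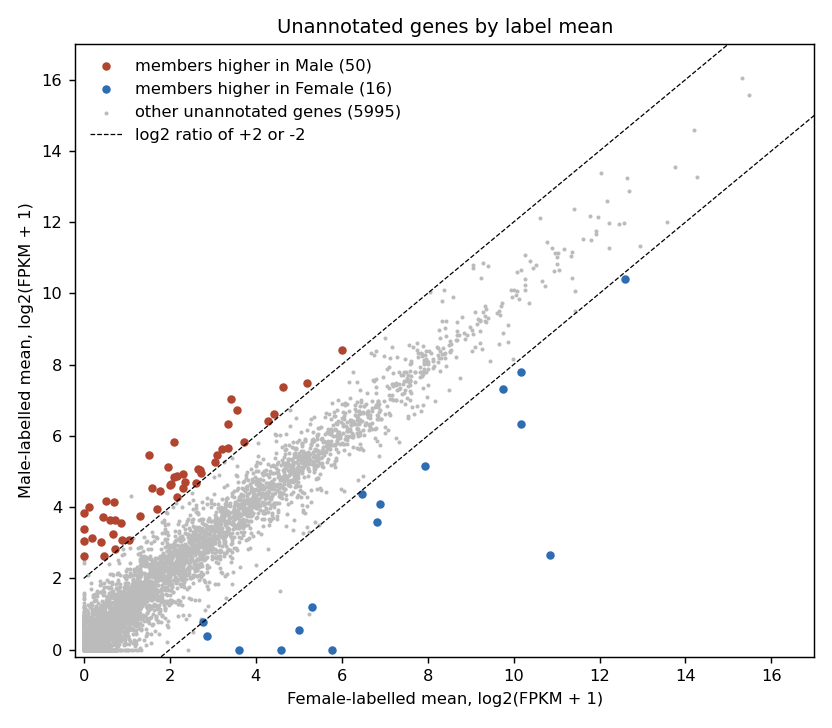
Mean level of every unannotated gene in the male-labelled (vertical axis) and female-labelled libraries (horizontal axis), both as log2(FPKM + 1), with the 50 members higher in the label male, the 16 higher in the label female and all other unannotated genes. The dashed lines are log2 ratios of 2 and -2; members higher in the female-labelled libraries reach higher levels than those higher in the male-labelled ones.

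The 50 members higher in the male-labelled libraries had a median of 23.9 FPKM in that label, with 5 at 100 FPKM or more and 31 under 30 FPKM. The 16 members higher in the female-labelled libraries had a median of 100 FPKM in that label, and 8 of them averaged at least 100 FPKM there. Summed, the 50 genes took 0.151% to 0.166% of all FPKM in the male-labelled libraries and 0.0223% to 0.0242% in the female-labelled ones. The 16 genes took 0.136% to 0.147% in the male-labelled libraries and 0.874% to 0.894% in the female-labelled ones. Without GWHGABGR015900, the most abundant of them, they took 0.04% to 0.0415% in the male-labelled libraries and 0.418% to 0.431% in the female-labelled ones.

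The member with the greatest absolute log2 ratio on the log2(FPKM + 1) scale, GWHGABGR014089, has as its best hit a hypothetical protein of the swallowtail Papilio machaon. It had 4.61, 6.07 and 5.29 FPKM in male-labelled libraries 1 to 3, against 1887, 1849 and 1784 FPKM in female-labelled libraries 1 to 3 (log2 ratio -8.18). In reads this was 91 in the male-labelled and 36503 in the female-labelled libraries, over a recovered coding length of 600 bases. Among all genes it ranked 6941st by its mean in the male-labelled libraries and 137th by its mean in the female-labelled ones. No other member reached an absolute log2 ratio of 6 on this scale. By reads the order differs. The read ratio of GWHGABGR014089 was 345 (exact 95% interval 281 to 429), below the bound of at least 614-fold for GWHGABGR000271, described below.

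Its identifier lies within a run of odorant-binding proteins, the small soluble carriers that move odorants through the sensillum lymph. The table gives no positions, so a neighbour here means a gene next in identifier number. On one side stand odorant-binding protein 14 (GWHGABGR014086), general odorant-binding protein 28a-like (GWHGABGR014087) and an uncharacterized gene (GWHGABGR014088). On the other stand general odorant-binding proteins 19a-like (GWHGABGR014090), 72-like (GWHGABGR014091) and 19d-like (GWHGABGR014092). Odorant-binding protein 28a-like averaged 8128 ± 414 FPKM in the male-labelled libraries and 5926 ± 81.9 FPKM in the female-labelled ones (SD, n = 3 each). Odorant-binding protein 72-like averaged 1275 ± 79.4 FPKM in the male-labelled libraries and 758 ± 12.1 FPKM in the female-labelled ones. Neither of the genes directly beside the member came near its ratio. The uncharacterized one averaged 36.2 ± 5.33 FPKM in the male-labelled libraries and 55.3 ± 10.9 FPKM in the female-labelled ones, and 19a-like averaged 168 ± 22.3 FPKM in the male-labelled libraries and 119 ± 13.5 FPKM in the female-labelled ones.

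A further 3 members higher in the female-labelled libraries were listed at 0 in all male-labelled ones. GWHGABGR000271, whose best hit is a hypothetical protein of the tobacco budworm moth Heliothis virescens, had 0 FPKM in all male-labelled libraries and 52.8, 55.8 and 52.9 FPKM in the female-labelled ones. Its 2142 reads made it at least 614-fold higher in the female-labelled libraries, with 3 reads in the group taken as the floor. GWHGABGR001915, with no best hit and a coding length of 162 bases, had 0 FPKM in all male-labelled libraries and 27.4, 18.8 and 22.8 FPKM in the female-labelled ones, where its 123 reads gave at least a 35.3-fold difference. GWHGABGR014227, also with no best hit, had 0 FPKM in all male-labelled libraries and 8.59, 11.6 and 13.3 FPKM in the female-labelled ones, at least 30.1-fold higher by its 105 reads. Such floors and the intervals below cover counting error alone, and reads without molecular identifiers are not independent molecules.

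GWHGABGR014227 is followed by an aldehyde dehydrogenase (GWHGABGR014228), of an enzyme family that oxidizes aldehydes, the chemical class of many moth pheromones. This neighbour, named for its size of difference among the genes beside members, had 2.2 ± 0.116 FPKM in the male-labelled libraries and 24.8 ± 1.33 FPKM in the female-labelled ones (SD, n = 3 each; log2 fold change -3.01, SE 0.13, limma adjusted p = 3.64e-07). The receptor guanylyl cyclase on its other side (GWHGABGR014229) did not pass (4.16 ± 0.607 FPKM in the male-labelled and 2.68 ± 0.219 FPKM in the female-labelled libraries, limma adjusted p = 0.0602).

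Among the other members higher in the label female, GWHGABGR012408, with no best hit and 237 bases long, was the most abundant with no hit. It had 80.0, 75.5 and 81.7 FPKM in the male-labelled libraries and 1211, 1165 and 1096 FPKM in the female-labelled ones (log2 ratio -3.85). GWHGABGR015432, an uncharacterized protein with a hit in the wild silkmoth Bombyx mandarina, had 1.35, 1.17 and 1.34 FPKM in the male-labelled libraries and 39.8, 41.6 and 34.6 FPKM in the female-labelled ones (log2 ratio -4.12). GWHGABGR001827, with no best hit, had reads in 1 male-labelled library alone. It stood at 1.39, 0 and 0 FPKM in the male-labelled libraries and at 28.7, 28.9 and 36.4 FPKM in the female-labelled ones (log2 ratio -4.47, read ratio 68.2 with an exact 95% interval of 26.4 to 252). In these genes the labels were far apart, since even the lowest female-labelled library lay more than 10-fold above the highest male-labelled one.

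**Figure D2:**
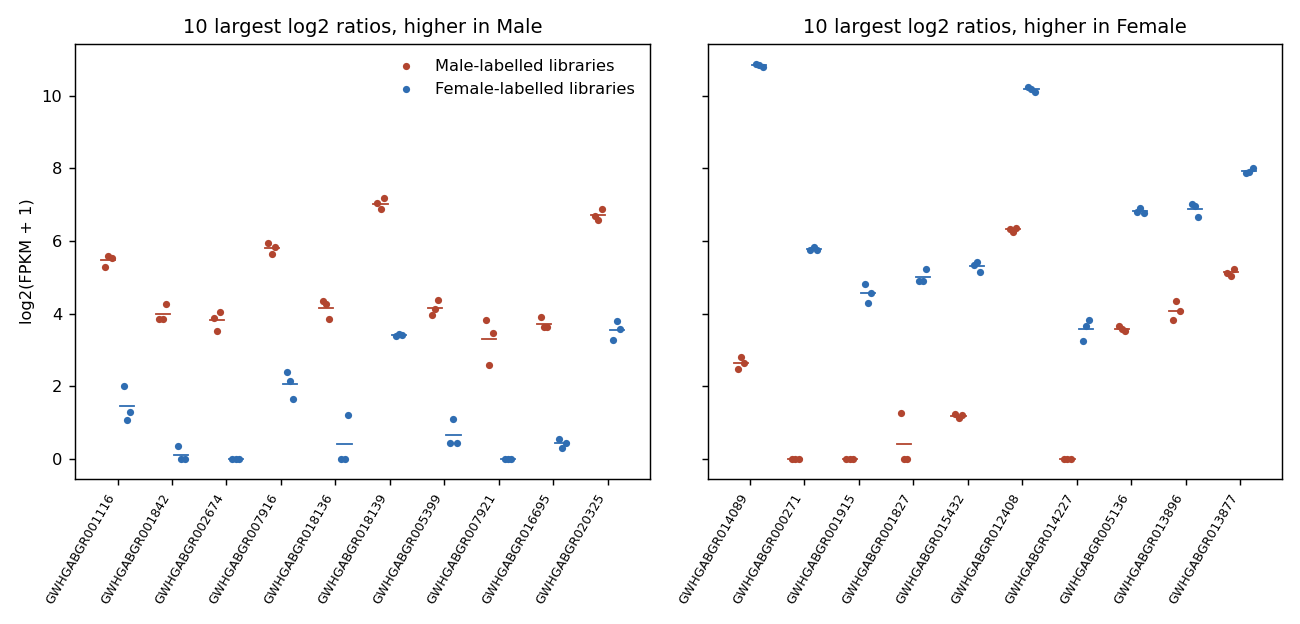
Level in each library, as log2(FPKM + 1), of the 10 members with the largest absolute log2 ratios in each direction; points are single libraries (male-labelled left, female-labelled right within each gene) and lines are means over the 3 libraries. The rule allows no overlap between the libraries of the labels, and among these 20 genes GWHGABGR014089 has the widest distance between them.

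Cuticle proteins, which build the outer layer of the antenna and its sensilla, were named in 3 of the members higher in the label female, so the rule also took in genes that carry a name. The hits of 2 members are called cuticular protein hypothetical, which is a family name and not a missing one. The first, cuticular protein hypothetical 30 (GWHGABGR015900, symbol PCP), was the most abundant of all 66 members. It had 1292, 1407 and 1346 FPKM in the male-labelled libraries and 6231, 6009 and 6376 FPKM in the female-labelled ones (log2 ratio -2.20). The second, cuticular protein hypothetical 16 (GWHGABGR013873), had 21.7, 18.8 and 18.5 FPKM in the male-labelled libraries and 81.2, 89.8 and 90.9 FPKM in the female-labelled ones (log2 ratio -2.10). A gene whose hit is an unnamed protein product (GWHGABGR004279) carries the symbol CP66 and the term structural constituent of cuticle. It had 152, 168 and 158 FPKM in the male-labelled libraries and 859, 841 and 880 FPKM in the female-labelled ones (log2 ratio -2.43).

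The second of these stands in a run of cuticle genes that holds a further member 4 identifiers away. That member, GWHGABGR013877, is named only as an uncharacterized protein of the tobacco hornworm Manduca sexta. It had 34.0, 32.1 and 36.9 FPKM in the male-labelled libraries and 233, 238 and 258 FPKM in the female-labelled ones (log2 ratio -2.79). The gene next to it, cuticular protein 11 (GWHGABGR013878), had 24.7 ± 1.6 FPKM in the male-labelled libraries and 115 ± 17.5 FPKM in the female-labelled ones (SD, n = 3 each; log2 fold change -2.16, SE 0.11, limma adjusted p = 1.68e-06). Picked after their values were seen, cuticle protein 18.7-like (GWHGABGR013874) averaged 128 ± 3.92 FPKM in the male-labelled libraries and 262 ± 9.17 FPKM in the female-labelled ones, and cuticle protein 16.5-like (GWHGABGR013881) averaged 1852 ± 52.4 FPKM in the male-labelled libraries and 4449 ± 134 FPKM in the female-labelled ones. The run was not uniform. An uncharacterized gene in it (GWHGABGR013880) averaged 4577 ± 216 FPKM in the male-labelled libraries and 3488 ± 61.4 FPKM in the female-labelled ones, and another without a hit (GWHGABGR013872) was among the most abundant genes of the antenna in both labels, with 48283 ± 794 FPKM in the male-labelled libraries and 45634 ± 894 FPKM in the female-labelled ones.

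**Figure D3:**
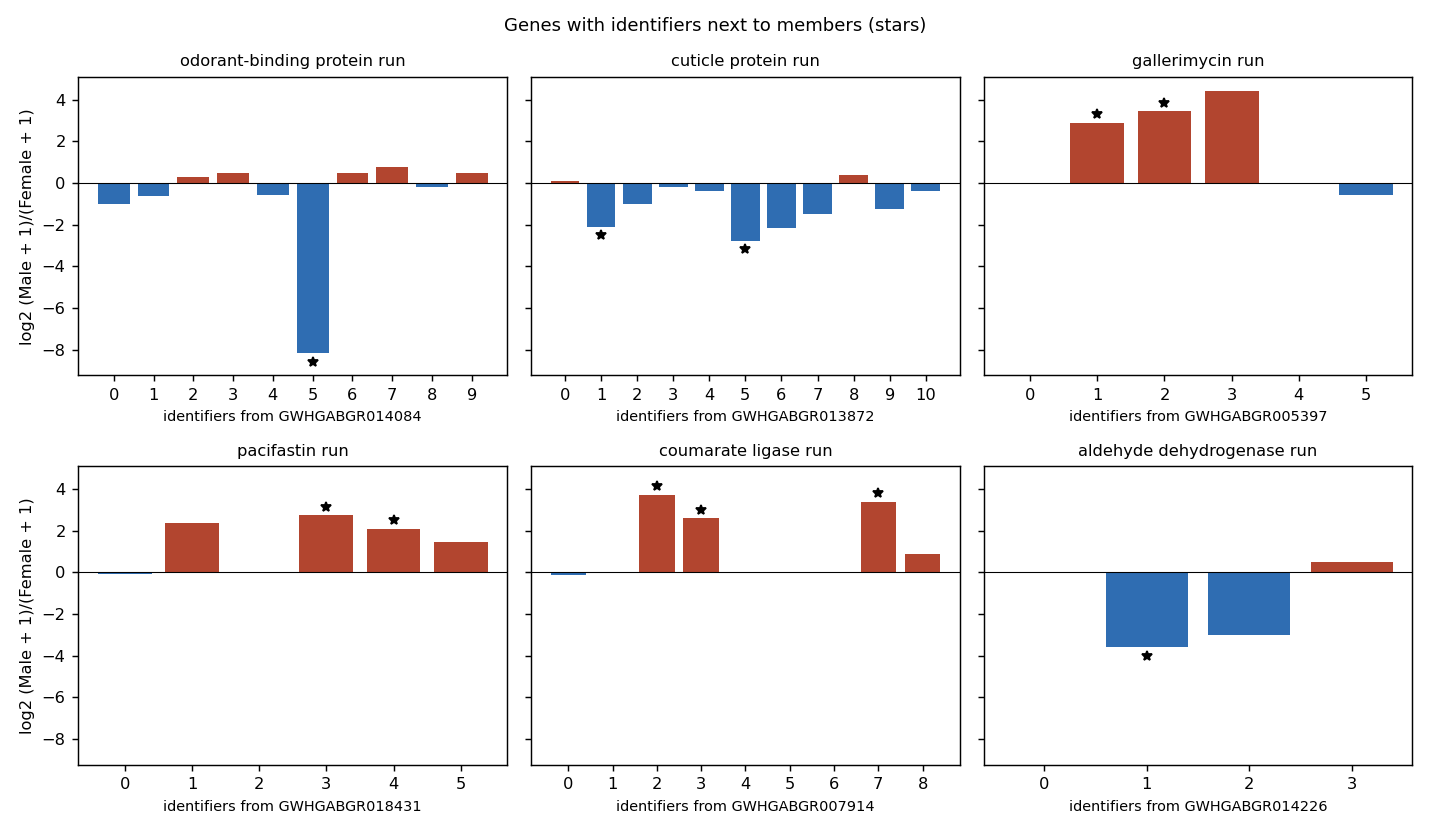
Log2 ratio of the male-labelled over the female-labelled mean (each + 1) for genes in 6 runs of identifiers around members, with the identifier number counted from the first gene of the run on the horizontal axis; stars mark members, and a place without a bar is an identifier not analysed here or a ratio close to 0. In the odorant-binding protein run the member is at -8.18 and every other gene lies between -1.02 and 0.75, and in the gallerimycin run the gene after the members is at 4.43.

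The 5 remaining members higher in the label female were of high, intermediate and low level. GWHGABGR015702, an uncharacterized protein given the symbol SDR25C1 and a carbonyl reductase (NADPH) term, had 216, 216 and 228 FPKM in the male-labelled libraries and 1153, 1187 and 1110 FPKM in the female-labelled ones. Carbonyl reductases reduce aldehydes and ketones to alcohols. GWHGABGR005136 had 11.5, 10.9 and 10.4 FPKM in the male-labelled libraries and 110.1, 119.8 and 108.1 FPKM in the female-labelled ones, and GWHGABGR013896, with no hit, had 13.3, 19.2 and 15.7 FPKM in the male-labelled libraries and 128, 124 and 99.9 FPKM in the female-labelled ones. GWHGABGR008904 and GWHGABGR015754 were low in both labels, with means of 0.294 and 0.702 FPKM in the male-labelled libraries and 6.3 and 5.88 FPKM in the female-labelled ones. GWHGABGR015754 carries the symbol CGI-86, in humans a short-chain dehydrogenase.

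The 50 members higher in the label male were led by GWHGABGR001116, an uncharacterized protein with a hit in Bombyx mandarina. It had 38.0, 46.8 and 45.6 FPKM in the male-labelled libraries and 2.99, 1.13 and 1.45 FPKM in the female-labelled ones (log2 ratio 3.96). GWHGABGR001842, a hypothetical protein with a hit in Heliothis virescens, had 13.5, 13.5 and 18.1 FPKM in the male-labelled libraries and 0.288, 0 and 0 FPKM in the female-labelled ones, from 135 reads and 1 read (read ratio 157, exact 95% interval 27.7 to 6242). The label female thus had a trace of this gene in a single library. GWHGABGR018139 was the most abundant of the 10 with the largest ratios, with 132, 116 and 143 FPKM in the male-labelled libraries and 9.44, 9.94 and 9.76 FPKM in the female-labelled ones (log2 ratio 3.62). At 3 identifiers before it, GWHGABGR018136, with no hit and 210 bases long, had 19.3, 18.3 and 13.6 FPKM in the male-labelled libraries and 0, 0 and 1.32 FPKM in the female-labelled ones.

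Of the members higher in the label male, 4 were listed at 0 in all female-labelled libraries. GWHGABGR002674, with no hit, had 13.8, 10.4 and 15.6 FPKM in the male-labelled libraries and was at least 24.8-fold higher there by the same floor. GWHGABGR007921, an uncharacterized protein with a hit in the cotton bollworm Helicoverpa armigera, had 13.2, 5.01 and 10.2 FPKM in the male-labelled libraries and was at least 30.2-fold higher. GWHGABGR014157, with no hit, had 6.35, 6.94 and 8.54 FPKM in the male-labelled libraries and was at least 22.9-fold higher. GWHGABGR016356 had 5.95, 4.53 and 5.26 FPKM in the male-labelled libraries from 24 reads and was at least 9.3-fold higher, the only member with under 30 reads in all. The recovered lengths of GWHGABGR002674 and GWHGABGR016356 are no multiples of 3, so these read numbers and bounds could be understated.

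The members highest in absolute level on this side mostly had no hit at all. GWHGABGR012502, 240 bases long, had 330, 305 and 374 FPKM in the male-labelled libraries and 74.0, 57.8 and 59.5 FPKM in the female-labelled ones (log2 ratio 2.38). GWHGABGR008730, 384 bases long, had 174, 175 and 184 FPKM in the male-labelled libraries and 41.1, 34.7 and 30.7 FPKM in the female-labelled ones. GWHGABGR018434, 387 bases long, had 166, 158 and 169 FPKM in the male-labelled libraries and 23.2, 24.5 and 24.1 FPKM in the female-labelled ones. The fourth was GWHGABGR018139 (above), and the fifth, GWHGABGR020325, an uncharacterized protein with a hit in Manduca sexta, had 102, 95.3 and 117 FPKM in the male-labelled libraries and 8.71, 12.9 and 10.9 FPKM in the female-labelled ones.

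**Figure D4:**
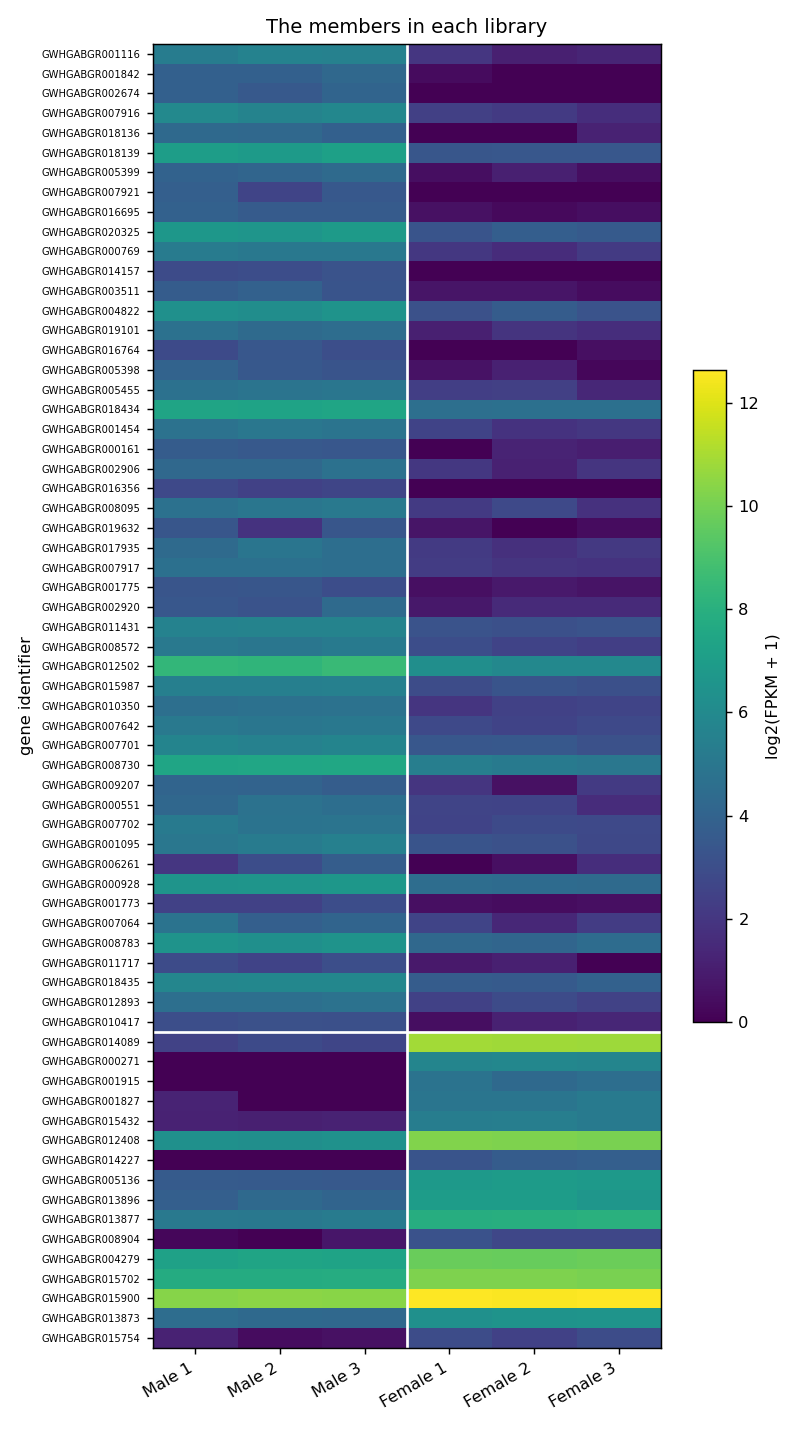
Level of all 66 members in each of the 6 libraries as log2(FPKM + 1), male-labelled columns left and female-labelled columns right, with the 50 members higher in the label male above the white line and the 16 higher in the label female below it, each set in order of its absolute log2 ratio. The brightest row is cuticular protein hypothetical 30 (GWHGABGR015900), and 5 of the rows above the line reach a mean of 100 FPKM in the male-labelled libraries.

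In 6 places members stood within 3 identifiers of another member, 12 members in all. All 12 were higher in the label male, as were 50 of the 66 members. Such places were not counted among other genes. In 2 of these places both genes share a best hit. Whether their reads were split between near-identical copies or between parts of 1 gene was not tested. GWHGABGR007916 and GWHGABGR007917 both match LOC115449186 of Manduca sexta. The first had 61.0, 49.0 and 56.3 FPKM in the male-labelled libraries and 4.24, 3.40 and 2.16 FPKM in the female-labelled ones, and the second had 24.8, 24.6 and 22.4 FPKM in the male-labelled libraries and 3.78, 2.88 and 2.62 FPKM in the female-labelled ones. GWHGABGR007921, described above, follows 4 identifiers after the second, and genes called 4-coumarate-CoA ligase, an enzyme that activates acids with coenzyme A, stand on both ends of the run. The one before (GWHGABGR007914) averaged 9.03 ± 2.1 FPKM in the male-labelled libraries and 10.01 ± 1.83 FPKM in the female-labelled ones, and the one after (GWHGABGR007922) averaged 2.93 ± 0.767 FPKM in the male-labelled libraries and 1.14 ± 0.339 FPKM in the female-labelled ones. GWHGABGR007701 and GWHGABGR007702 both match LOC115455657 of Manduca sexta, with means of 49.3 ± 3.32 and 30.1 ± 4.18 FPKM in the male-labelled libraries and 9.21 ± 1.4 and 5.67 ± 0.69 FPKM in the female-labelled ones.

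GWHGABGR005398 and GWHGABGR005399 stand directly before a gene for gallerimycin, a defensin-like antifungal peptide of moths. GWHGABGR005398 had 15.1, 10.2 and 8.85 FPKM in the male-labelled libraries and 0.542, 1.25 and 0.184 FPKM in the female-labelled ones. GWHGABGR005399 had 14.5, 16.4 and 19.6 FPKM in the male-labelled libraries and 0.363, 1.13 and 0.369 FPKM in the female-labelled ones. The gallerimycin-like gene (GWHGABGR005400) had 547 ± 48.1 FPKM in the male-labelled libraries and 24.4 ± 4.71 FPKM in the female-labelled ones (SD, n = 3 each; log2 fold change 4.44, SE 0.13, limma adjusted p = 2.94e-08). On the far side the next listed gene, membrane-associated progesterone receptor component 1-like (GWHGABGR005402), went the other way, with 1152 ± 4.15 FPKM in the male-labelled libraries and 1710 ± 15.9 FPKM in the female-labelled ones.

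GWHGABGR018434 and GWHGABGR018435 have no hit and stand 2 and 3 identifiers after a gene matched to the pacifastin light chain (GWHGABGR018432), a serine protease inhibitor known from crayfish and other arthropods. That gene, picked after its values were seen, had 108 ± 6.2 FPKM in the male-labelled libraries and 19.99 ± 2.36 FPKM in the female-labelled ones. GWHGABGR018435 had 54.6, 57.0 and 56.7 FPKM in the male-labelled libraries and 11.7, 11.02 and 14.3 FPKM in the female-labelled ones. GWHGABGR001773 and GWHGABGR001775 both carry the symbol HT001 and the terms nuclease activity and DNA repair, with 5.22 ± 1.4 and 8.41 ± 1.37 FPKM in the male-labelled libraries and 0.394 ± 0.0345 and 0.595 ± 0.2 FPKM in the female-labelled ones.

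Genes directly beside members were also counted as a set, leaving out those that are members themselves, so that the values of adjacent genes shaped the set in part. Of these 98 genes, 67 passed the filter on low values, and by limma 27 of them (40.3%) were higher under the label male and 8 (11.9%) under the label female at an adjusted p of 0.05. Over all 11590 genes tested these shares were 27.8% and 9.03%, with 36.9% called in all, and over the 3466 unannotated genes tested they were 24.8% and 9.29%, with 34.1% in all. The median log2 fold change of the neighbours was 0.40, beside 0.23 for all genes tested. After median-of-ratios rescaling 19 and 9 of 66 neighbours were called in these directions, beside 1652 and 2040 of 11548 genes. After quantile normalization 17 and 10 of 67 were called, beside 1637 and 1682 of 11586 genes. Beside members higher in the label male, 22 of 50 tested neighbours were higher under the label male and 3 under the label female. Beside members higher in the label female, 5 of 17 were higher under the label male and 5 under the label female.

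Of these neighbours, 5 were called with an absolute log2 fold change of at least 2. Besides the gallerimycin-like, cuticular protein 11 and aldehyde dehydrogenase genes, they include a solute carrier family 22 gene (GWHGABGR005456), of a family of organic ion transporters. It had 52.4 ± 0.75 FPKM in the male-labelled libraries and 6.7 ± 0.651 FPKM in the female-labelled ones (SD, n = 3 each; log2 fold change 2.80, SE 0.10, limma adjusted p = 1.19e-07). The member next to it, GWHGABGR005455, had 24.9, 28.1 and 30.3 FPKM in the male-labelled libraries and 4.07, 4.24 and 1.61 FPKM in the female-labelled ones. The fifth neighbour, GWHGABGR019633, with the hit putative uncharacterized protein ART2, directly follows the member GWHGABGR019632. The gene directly before that member, GWHGABGR019631, had 0.507, 0.496 and 55.9 FPKM in the male-labelled libraries, and both are described below. GWHGABGR019633 was uneven among libraries, with 3.37, 0.694 and 9.17 FPKM in the male-labelled libraries and 0 FPKM in all female-labelled ones (log2 fold change 2.08, limma adjusted p = 0.0185). Its call was lost when male replicate 1 was left out (limma adjusted p = 0.0522) and when female replicate 2 (0.0502) or female replicate 3 (0.0521) was, and it ranged from 0.0012 to 0.0522 over all alternatives run.

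Annotation other than the best hit was rare. Of the 66 members, 12 carried a gene symbol, 11 a GO term and 2 a pathway, and 54 (81.8%) had none of these. Among the 1785 other unannotated genes with a label mean of at least 5 FPKM, 57.0% had none. The descriptions were missing for 19 members, uncharacterized for 32, hypothetical for 11, cuticular protein hypothetical for 2 and unnamed for 2. Missing descriptions made up 28.8% of members and 15.0% of those other unannotated genes. The 47 best hits came from 15 species, all of them moths or butterflies, led by Manduca sexta (12), Bombyx mandarina (6) and Bombyx mori (5).

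Of the members higher in the label male, 8 carry a symbol, among them the HT001 genes above. GWHGABGR011431 (symbol CG11066, in Drosophila the serine protease homologue scarface) had 47.5, 49.2 and 49.5 FPKM in the male-labelled libraries and 8.49, 7.63 and 8.56 FPKM in the female-labelled ones, and at 5919 bases it was the longest member. GWHGABGR000769 (symbol Ncam, in mammals a neural cell adhesion molecule) had 37.4, 31.9 and 31.9 FPKM in the male-labelled libraries and 3.14, 2.07 and 3.49 FPKM in the female-labelled ones. GWHGABGR019101 (symbol CG1152, in Drosophila glucose dehydrogenase, an enzyme of cuticle formation and sperm storage) averaged 22.3 ± 2.65 FPKM in the male-labelled libraries and 2.01 ± 0.807 FPKM in the female-labelled ones. GWHGABGR015987 (symbol GA11047), with the same flavin-binding and oxidoreductase terms, averaged 43.3 ± 0.404 FPKM in the male-labelled libraries and 7.62 ± 1.02 FPKM in the female-labelled ones.

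GWHGABGR008095 (symbol PIPOX, in mammals a peroxisomal oxidase of pipecolate and sarcosine) averaged 29.5 ± 4.4 FPKM in the male-labelled libraries and 3.97 ± 1.77 FPKM in the female-labelled ones. GWHGABGR000928 (symbol CG12079, in Drosophila a subunit of respiratory complex I) had 92.0, 95.8 and 102.4 FPKM in the male-labelled libraries and 21.96, 20.4 and 19.6 FPKM in the female-labelled ones. Another gene with its best hit, evm_002430 of the rice stem borer Chilo suppressalis, stands 2 identifiers before it and went the other way. That gene, GWHGABGR000926, averaged 48.1 ± 0.609 FPKM in the male-labelled libraries and 89.7 ± 3.25 FPKM in the female-labelled ones (SD, n = 3 each; log2 fold change -0.89, limma adjusted p = 6.95e-06). Whether reads were split between these genes by the authors' counting was not tested.

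Other genes that share a member's best hit went in both directions. Of 94 such genes, 72 share only the text unnamed protein product, which has no identifier of its own. Of all 94, 58 were tested, and 12 were higher under the label male and 11 under the label female by limma, with a median log2 fold change of 0.15. These are 20.7% and 19.0% of the genes tested, beside 27.8% and 9.03% over all genes. After median-of-ratios rescaling 7 and 16 of 58 were called, beside 1652 and 2040 of all 11548 genes tested. After quantile normalization 7 and 11 of 58 were called, beside 1637 and 1682 of 11586. Of the 22 with an identified hit, 11 were tested, and 3 were higher under the label male and 4 under the label female. GWHGABGR016694, which shares LOC113498798 of the moth Trichoplusia ni with its neighbour GWHGABGR016695, had 3.23 ± 0.295 FPKM in the male-labelled libraries and 0.0742 ± 0.128 FPKM in the female-labelled ones (SD, n = 3 each; log2 fold change 1.98, limma adjusted p = 0.000102). The member itself had 14.1, 11.3 and 11.4 FPKM in the male-labelled libraries and 0.476, 0.235 and 0.363 FPKM in the female-labelled ones. In contrast, GWHGABGR015764, which shares LOC101746411 of Bombyx mori with GWHGABGR015754, a member higher in the label female, averaged 37.0 ± 0.528 FPKM in the male-labelled libraries and 24.8 ± 3.25 FPKM in the female-labelled ones (log2 fold change 0.56, limma adjusted p = 0.00343).

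Members were short. Their recovered coding length had a median of 520.5 bases, beside 732 bases for the 1785 other unannotated genes with a label mean of at least 5 FPKM and 999 bases for 5285 annotated genes with such a mean that did not meet the rest of the rule. Annotated genes past the same thresholds of level, ratio and separation had a median of 633 bases. By direction the medians were 498.5 bases for members higher in the label male and 624 bases for those higher in the label female. Lengths under 300 bases made up 28.8% of members, 13.4% of those other unannotated genes and 8.39% of the annotated genes past the same thresholds. At the same FPKM a shorter gene rests on fewer reads.

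**Figure D5:**
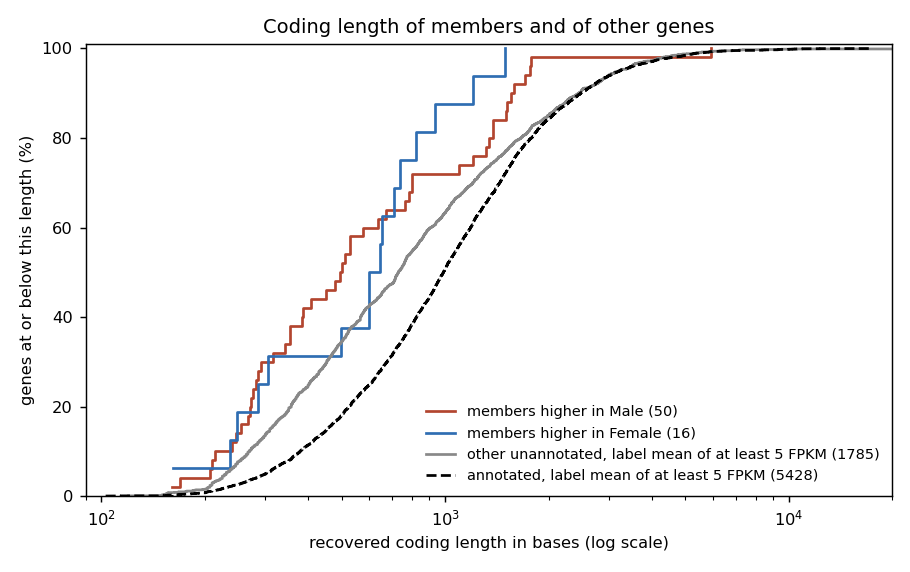
Share of genes at or below each recovered coding length (horizontal axis, bases, log scale) for the members higher in the label male and female, for other unannotated genes and for annotated genes with a label mean of at least 5 FPKM. Both member curves lie left of the dashed curve of annotated genes over most of the range.

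The rule's separation of libraries favours genes whose libraries agree, so the spread within a label is only described here. Members of the 2 directions also differ in level, as given above. The coefficient of variation in the higher label had a median of 12.4% for members higher in the label male and 5.82% for those higher in the label female, and 5 members exceeded 40%, all of them higher in the label male. The widest was GWHGABGR006261, with no hit, at 2.99, 6.81 and 12.4 FPKM in the male-labelled libraries and 0, 0.418 and 2.15 FPKM in the female-labelled ones. Its lowest male-labelled value was 1.39-fold its highest female-labelled one, the narrowest gap among members with a value above 0 in the lower label. GWHGABGR019632, a hypothetical protein with a hit in the bagworm moth Eumeta japonica, had 9.26, 2.64 and 9.59 FPKM in the male-labelled libraries and 0.657, 0 and 0.334 FPKM in the female-labelled ones. Of the 50 members higher in the label male, 14, 9 and 27 had their highest male-labelled value in replicates 1, 2 and 3. The matching counts over all genes were not taken, so nothing about the members is read from these numbers.

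At the ratio threshold, the members just inside were GWHGABGR010417 (log2 ratio 2.01) and GWHGABGR015754 (-2.02), and the genes just outside were GWHGABGR003909, which rounds to 2.00 but lay below it, and GWHGABGR011369 (-1.98). GWHGABGR003909 had 10.6, 5.93 and 6.93 FPKM in the male-labelled libraries and 1.55, 0.255 and 1.84 FPKM in the female-labelled ones. These values are much like those of GWHGABGR010417, with means of 7.38 FPKM in the male-labelled libraries and 1.09 FPKM in the female-labelled ones. Among genes left outside by the ratio was an abundant uncharacterized protein with a hit in Bombyx mandarina, GWHGABGR017578, with 1051, 1015 and 1075 FPKM in the male-labelled libraries and 267, 268 and 266 FPKM in the female-labelled ones (log2 ratio 1.97). Another 3 unannotated genes met level and ratio but not the separation of libraries, each through 1 library. GWHGABGR015947 had 0.855, 0 and 2.12 FPKM in the male-labelled libraries and 0.364, 109.6 and 0 FPKM in the female-labelled ones. GWHGABGR019757 had 2.6, 2.75 and 1.08 FPKM in the male-labelled libraries and 0.737, 65.4 and 1.87 FPKM in the female-labelled ones, and GWHGABGR019631 had 0.507, 0.496 and 55.9 FPKM in the male-labelled libraries and 2.16, 0.852 and 0.439 FPKM in the female-labelled ones.

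Markers of other cell types are given beside the 27.8% and 9.03% of all genes called higher under the labels male and female as deposited. After median-of-ratios rescaling the counts over all genes were 1652 and 2040 of 11548, and after quantile normalization 1637 and 1682 of 11586. Of 13 tested hemocyte markers, 10 were higher under the label male by limma and 3 did not pass, and after median-of-ratios rescaling 7 were higher. Summed over all 20 matched hemocyte genes, the level was 2465 to 2567 FPKM in the male-labelled libraries and 1522 to 1594 FPKM in the female-labelled ones, most of it hemolin, and 1 prophenoloxidase gene was at 0 in all female-labelled libraries. Of 39 tested fat body and hemolymph markers, 19 were higher under the label male and 2 under the label female, with sums over 60 matched genes of 1737 to 1820 FPKM in the male-labelled and 1547 to 1584 FPKM in the female-labelled libraries, and 9 of them at 0 in all female-labelled libraries. After median-of-ratios rescaling 13 and 2 of these were called, and after quantile normalization 13 and 4. Their part in the levels of the members was not tested. No hemocyte or fat body marker was at 0 in all male-labelled libraries. Of 17 matched ovary genes, 7 were at 0 in all male-labelled and 2 in all female-labelled libraries. Of 69 matched testis genes these were 13 and 10, and of 22 muscle genes 0 and 1. The share of all genes at 0 in a label was not taken, so nothing is read from these counts. Of 11 antennal olfactory markers, all tested, 5 were higher under the label male and 4 under the label female, with a median log2 fold change of -0.01. Among them, the odorant receptor coreceptor, which marks olfactory neurons and is listed as putative chemosensory receptor 2 (GWHGABGR013501), was present in all libraries, with 176 ± 1.58 FPKM in the male-labelled and 465 ± 5.9 FPKM in the female-labelled ones. This gene and pheromone-binding protein 1, the markers of this list given with values, are both higher under the label female and do not stand for the list.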

How the data were processed

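Antennal mRNA of 6 libraries, 3 labelled male and 3 labelled female, was measured with a strand-keeping library kit, per the labels' protocols. The authors deposited FPKM values per gene with best protein hits, symbols, GO terms and pathways. The submitters' processing notes list, with no roles, HISAT2, HTSeq, Trimmomatic and R (3.2.0). Neither coordinates nor sequences are printed, as the genome build is not given in the sources used here.

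Whole reads and lengths were recovered from the FPKM steps (tolerance 0.01 read, shortest length tried 90 bases) for 100% of 16458 genes. Of 11340 genes with more than 30 reads, 87.9% had lengths that are multiples of 3, hence coding lengths. Reads and length of a gene whose counts share a factor can be too low by it.

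All genes with a mean of at least 0.5 FPKM were tested with limma 3.58.1 in R 4.3.3, 2-sided, with the trend option on log2(FPKM + 1). Benjamini-Hochberg adjustment was applied at 0.05. The 66 members are among the genes tested and called, and so are part of the background shares. Only tests of other genes are reported. Label was the only term, and log2 fold changes are male-labelled minus female-labelled. The step was checked on simulated counts. Python 3.11.15, pandas 2.3.3, NumPy 2.4.6 and SciPy 1.17.1 did the rest.

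Members and lists were chosen with earlier results of these data known. The text names members with the 10 largest ratios and 5 highest levels each way, members with a symbol, in identifier runs, at 0 in a label or at the threshold, and called neighbours with an absolute log2 fold change of at least 2. A part is printed, and genes outside this rule, the identifier runs shown included, were picked after their values were seen. A match to orcokinin was taken out of the antennal markers. Of the other marker lists, 18 muscle, 5 ovary and 22 testis genes were tested, with 6, 2 and 5 higher in the male-labelled libraries and 1, 1 and 2 in the female-labelled ones. No hypothesis on the cause of a difference was tested. Alternatives covered pseudocounts, thresholds, rescaling, names, left-out libraries and a replicate block.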

Additional observations from a re-analysis of the deposited data

How the results depend on the processing

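All 66 members kept the sign of their log2 ratio under every pseudocount, rescaling and left-out library tried, with a lowest absolute value of 0.92. For the pseudocounts and left-out libraries this was fixed in advance, as the rule already required full separation of the labels. Only the rescalings could have changed a sign. How many unannotated genes met the rule depended on its thresholds. With a pseudocount of 5, which lowers the ratio of low genes by construction, 11 were higher under the label male and 12 under the label female. An absolute log2 ratio of at least 1.5 gave 96 and 36, and of at least 3 gave 13 and 8. Median-of-ratios rescaling gave 37 and 25 and quantile normalization 37 and 24. Leaving out single libraries gave 49 to 57 in the male-labelled and 15 to 20 in the female-labelled direction. Without the names cuticular protein hypothetical, an alternative chosen after seeing the data, 50 and 14 remained.

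Rescaling moved the background. All genes called numbered 1652 and 2040 after median-of-ratios rescaling and 1637 and 1682 after quantile normalization, in the male- and the female-labelled direction, and unannotated genes 489 and 557, and 465 and 501. Quantile normalization called 17 neighbours higher in the male-labelled libraries. With identifiers up to 3 before and after, 65 and 29 of 184 were called. Of genes sharing a best hit, 7 and 16 were called after median-of-ratios rescaling and 7 and 11 after quantile normalization, and 3 and 4 without texts that lack an identifier, chosen after seeing the data. The log2 fold change of GWHGABGR013872, 0.08 on the deposited scale, was -0.18 after median-of-ratios rescaling and -0.50 after quantile normalization; why was not tested beyond the scaling itself.

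Same-numbered libraries did not deviate together (correlations of -0.0038 to 0.0059 across genes), so the numbers were not taken as pairs. With a replicate block, 2891 and 954 genes, 26 and 8 neighbours and 13 and 11 genes sharing a best hit were called.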
